A study of Mus musculus with 20 samples.

Results

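Cathepsins and legumain are the proteases that break down proteins in lysosomes. The set described here was chosen by name, with earlier results of these data known. It held 10 genes (Ctsa, Ctsb, Ctsc, Ctsd, Ctsh, Ctsk, Ctsl, Ctss, Ctsz and Lgmn) of the 51912 genes in the count table. All 10 had counts in at least 1 library and were among the 28762 genes tested. The libraries came from neutrophils of C57BL/6 mice with pancreatic ductal adenocarcinoma (PDAC), produced by inoculation of KPC cells, a mouse pancreatic tumor line, and of sham mice, all collected at 10 days post inoculation (d.p.i.). The 5 groups of 4 libraries were brain-infiltrating, liver-infiltrating and tumor-infiltrating neutrophils of tumor mice, circulating neutrophils of tumor mice (called PDAC blood in the plots) and circulating neutrophils of sham mice. Blood was drawn before the animals were perfused, the solid tissues were digested with collagenase and the blood was not, and live single cells high for CD11b and Ly6G were sorted from each. Digestion and tissue therefore cannot be told apart, the labels name no sham brain, liver or tumor-site sample, and they do not say which libraries share a mouse, so p-values measure the spread between these libraries. The paper describes taking blood and then brain, liver and tumor from the mice, so groups of tumor mice may share animals. The main fit nevertheless treated all libraries as independent.

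Most cathepsins are cysteine proteases, made as inactive proenzymes, carried to the lysosome by mannose 6-phosphate receptors and activated there by low pH and by other proteases. Cathepsins B, L, S and K cut within proteins, cathepsins C, H and Z trim their ends, cathepsin D is an aspartic protease, cathepsin A is a serine carboxypeptidase, and legumain is an asparaginyl endopeptidase that also processes several cathepsins. In neutrophils cathepsin C is known for activating the serine proteases stored in azurophil granules. Cystatins and stefins are the natural inhibitors of the cysteine cathepsins.

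Promoters of members that differed over the groups (Ctsl and Ctss) and of members that passed no test (Ctsd and Ctsa) are shown because many lysosomal genes are known to share a promoter element. CACGTG, the core of the element bound by TFEB and its relatives, was 1 of 3 motifs searched for in RefSeq promoters of GRCm38.p6, windows of 300 bases from 250 before to 50 after a start, and reads the same on both strands. The promoter table held 10 windows for 8 members, and CACGTG lay in 4 of these windows, 1 each for Ctsa, Ctsd, Ctsl and Lgmn, whereas 7.15% of all 32851 windows held it. The ETS core GGAAGT, searched on both strands, lay in 4 of the 10 windows (23.8% of all windows) and the AP-1 motif TGANTCA in 0 (7.81%). The 4 printed windows were chosen with the members' values known. Capitals mark CACGTG, and each is written 5′ to 3′ on the gene's own strand. A match is a description of letters and not a binding site.
Ctsd, chr7:142387778-142388077, minus strand: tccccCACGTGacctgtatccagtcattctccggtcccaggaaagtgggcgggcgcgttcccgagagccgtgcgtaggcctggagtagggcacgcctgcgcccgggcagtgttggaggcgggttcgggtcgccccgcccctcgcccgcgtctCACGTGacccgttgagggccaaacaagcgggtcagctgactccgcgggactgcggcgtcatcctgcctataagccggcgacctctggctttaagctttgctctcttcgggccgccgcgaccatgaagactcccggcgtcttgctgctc
Ctsa, chr2:164833523-164833822, plus strand: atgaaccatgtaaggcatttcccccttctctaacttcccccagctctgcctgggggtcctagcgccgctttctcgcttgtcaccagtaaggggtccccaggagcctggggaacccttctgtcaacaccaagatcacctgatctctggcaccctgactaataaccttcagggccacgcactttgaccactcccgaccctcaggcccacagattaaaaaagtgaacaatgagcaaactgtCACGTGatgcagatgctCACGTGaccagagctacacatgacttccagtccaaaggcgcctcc
Ctsl, chr13:64370471-64370770, minus strand: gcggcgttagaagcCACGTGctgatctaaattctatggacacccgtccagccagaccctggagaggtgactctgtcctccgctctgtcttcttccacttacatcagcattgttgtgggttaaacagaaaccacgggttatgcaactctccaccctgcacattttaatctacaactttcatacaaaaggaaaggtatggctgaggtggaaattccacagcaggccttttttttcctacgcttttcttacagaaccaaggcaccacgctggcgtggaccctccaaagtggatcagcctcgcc
Ctss, chr3:95526536-95526835, plus strand: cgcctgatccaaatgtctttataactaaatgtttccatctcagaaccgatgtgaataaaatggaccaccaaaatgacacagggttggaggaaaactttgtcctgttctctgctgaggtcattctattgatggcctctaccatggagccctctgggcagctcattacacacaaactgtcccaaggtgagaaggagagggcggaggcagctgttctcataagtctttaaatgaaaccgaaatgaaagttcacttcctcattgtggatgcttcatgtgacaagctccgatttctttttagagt
Ctsd and Ctsa had 2 matches each, Ctsl had 1 and Ctss had 0.

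Each library held 47388245 to 54472378 counts, of which the 10 genes took 0.248 to 0.594% in blood and brain, 0.486 to 0.691% in liver and 0.708 to 1.80% in tumor. Levels are given as CPM, counts scaled by TMM to a library of 1000000 counts, with the SD over 4 libraries. The cells were sorted on surface protein, and the paper states that its lab regularly reaches high purity this way. At the RNA level, markers of neutrophils and of other cell types differed between the groups. The summed CPM of 12 neutrophil markers was 99285 ± 24561 in brain, 55904 ± 8646 in circulating cells of tumor mice, 38618 ± 9739 in liver, 35511 ± 4350.1 in sham blood and 7646 ± 3362 in tumor, where Ly6g, the sorted surface marker, was at 6.65 CPM against 204 CPM in circulating cells of tumor mice. Conversely, 12 macrophage markers summed to 8692 ± 1615 CPM in tumor, 3390.0 ± 2490.1 in brain, 3264 ± 1066 in liver, 1557 ± 153 in sham blood and 1079 ± 151 in circulating cells of tumor mice, and none of the 12 was at 0 in any group. Against circulating cells of tumor mice, 11 of these 12 were higher in tumor, 8 in liver and 8 in brain. The shares of all genes higher there were 13.3, 3.98 and 3.56%. The 9 microglia markers summed to 401 to 1358 CPM in brain and 488 to 599 CPM in circulating cells of tumor mice, where P2ry12 (108 CPM) and P2ry13 (449.6 CPM) made up nearly all of the sum, while the other 7 were higher in brain (Tmem119 80.3 against 1.18 CPM). In tumor 7 epithelial markers summed to 1049 to 3721 CPM. The part of these other cells in the levels below was not tested. In bulk samples, fewer cells of a type and less RNA per cell cannot be told apart.

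Over the 5 groups, 7 of the 10 genes differed (Ctsb, Ctsc, Ctsh, Ctsl, Ctss, Ctsz and Lgmn) by edgeR's quasi-likelihood test at an adjusted p under 0.05, where 30.8% of all genes tested did. Shares of all genes, here and below, are over the 28762 genes tested, of which 7202 had a mean of 10 CPM or more. All members but Ctsk were among the latter, and shares among genes of like level were not computed. For Ctsa, Ctsd and Ctsk the adjusted p over the 5 groups was 0.256, 0.205 and 0.208. The 10 genes summed to 3771 ± 281 CPM in sham blood and 3349 ± 489 in circulating cells of tumor mice. In the tissues the sum was 3883 ± 1587 CPM in brain, 6599.8 ± 1286 in liver and 8921 ± 3267 in tumor, so the brain libraries stayed close to blood with 1 exception, replicate 3, at 6260.2 CPM.

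**Figure D1:**
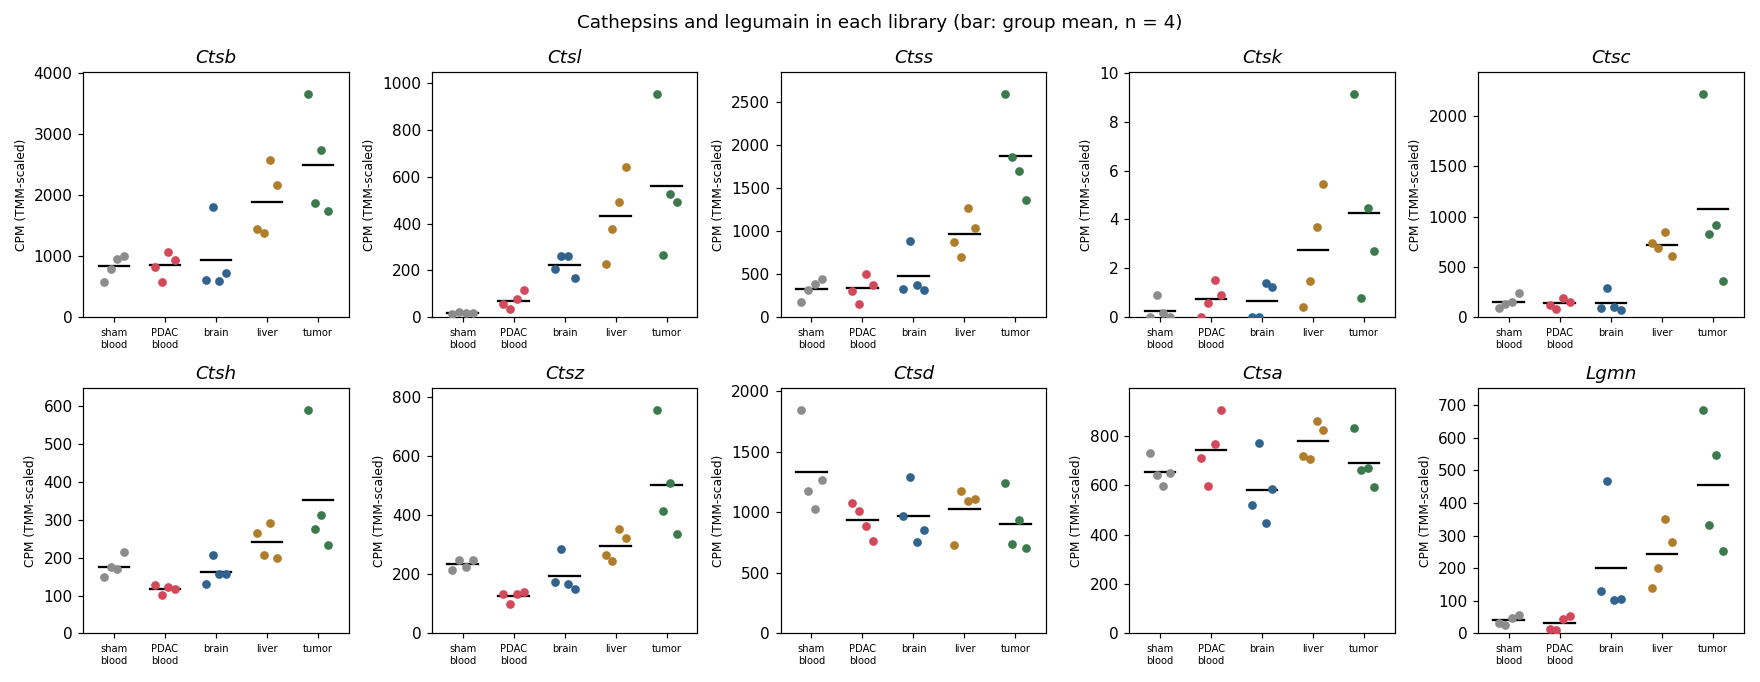
CPM after TMM scaling (linear vertical axes from 0) of each of the 10 genes in every library, with 4 points and a mean bar for each of the 5 groups. Ctsb, Ctsl, Ctss, Ctsc, Ctsh, Ctsz and Lgmn have their highest group means in tumor and the next highest in liver, while Ctsa and Ctsd stay within a narrow band and Ctsk lies under 10 CPM; the single high brain point of Ctsb, Ctsc, Ctss and Lgmn is replicate 3.

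In liver and tumor the same pattern of 7 genes stood out. Against circulating neutrophils of tumor mice, Ctsb, Ctsc, Ctsh, Ctsl, Ctss, Ctsz and Lgmn were higher in tumor (7 of 10, where 13.3% of all genes were called higher) and 0 were lower (10.3% of all genes), and the same 7 were higher in liver (3.98% of all genes) with 0 lower (1.20%). The median log2 fold change over the 10 genes was 2.24 in tumor and 1.38 in liver, beside 0.00 over all genes in both. For the same 7 genes all 4 tissue libraries lay above all 4 libraries of that blood, as they did for 15.3% of all genes in tumor and 7.64% in liver. Both comparisons use the same blood libraries. Where edgeR called 0 members in a direction, DESeq2 and limma also called 0, and at an unadjusted p under 0.05 edgeR gave 0 as well, except 1 (Ctsa, lower in brain than in circulating cells of tumor mice). With sequencing lane as a term, all 7 remained called in tumor and in liver, and both members called in brain remained called (Ctsl 1.61, adjusted p = 0.0309, and Lgmn 2.80, adjusted p = 0.00606). Brain and circulating cells of tumor mice shared only lane 1, whose single brain library was replicate 3. The within-lane differences there were 1.99 for Ctsl and 4.27 for Lgmn. Within lanes 1 and 4, with 1 liver and 2 blood libraries each, the 7 liver differences were all positive (Ctsh 0.93 and 0.66, Lgmn 3.06 and 3.36), and no lane held both tumor and circulating cells of tumor mice.

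Among the endopeptidases, Ctsl (chr13:64359337-64370890, minus strand), whose product cuts a broad range of lysosomal proteins, had the widest span between groups of the members above 10 CPM. Sham blood held 12.6, 20.9, 18.8 and 18.6 CPM in replicates 1 to 4, and circulating cells of tumor mice 55.8, 36.8, 76.6 and 115 CPM. Brain replicates 2 to 5 held 207, 263, 260.1 and 168 CPM. Every blood library of tumor mice was above every sham library, and every brain library above both. Liver held 227, 376, 494 and 643 CPM in replicates 1 to 4. Tumor replicates 1, 2, 3 and 5 held 954, 265, 527 and 492 CPM, all above the brain libraries and overlapping liver. Ctsl rose 4.01-fold from sham to tumor-mouse blood (log2 2.01 ± 0.37 SE, adjusted p = 0.00255), a further 3.15-fold from that blood to brain (1.66 ± 0.36, adjusted p = 0.00844) and 6.11-fold and 7.86-fold from that blood to liver and tumor (adjusted p = 0.000110 and 4.58e-06). Its level in tumor exceeded that in brain by 2.49-fold (log2 brain minus tumor −1.32 ± 0.36, adjusted p = 0.0138), a call that was lost without tumor replicate 1, at −0.96 and an adjusted p of 0.0727. Liver and tumor did not differ at the threshold (log2 tumor minus liver 0.36 ± 0.35, adjusted p = 0.573). An antisense gene, Gm47123, shares 26.8% of the Ctsl exon bases and is listed at 0 in all libraries, and the kit does not mark strand.

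Lgmn (chr12:102394084-102439813, minus strand), which encodes legumain, was low in blood and higher in every tissue. Sham blood held 31.2, 27.4, 47.9 and 55.3 CPM, and circulating cells of tumor mice 15.1, 9.48, 45.7 and 55.0 CPM in replicates 1 to 4. Brain replicates 2 to 5 held 129, 468, 103 and 106 CPM, liver 138, 201, 352 and 281 CPM, and tumor 684, 333, 548 and 253 CPM. All 12 tissue libraries were above all 8 blood libraries. Lgmn was 6.43-fold higher in brain than in circulating cells of tumor mice (log2 2.69 ± 0.55, adjusted p = 0.00481), 7.76-fold higher in liver (2.96 ± 0.55, adjusted p = 0.00207) and 14.5-fold higher in tumor (3.86 ± 0.58, adjusted p = 2.91e-05). Without brain replicate 3 the brain difference was 1.81 on the log2 scale (adjusted p = 0.0275). Brain and tumor did not pass the threshold in the fit without a block (log2 brain minus tumor −1.17 ± 0.52, adjusted p = 0.136). The difference passed without brain replicate 3 (−2.08, adjusted p = 0.00636) and with the replicate number as a block (−1.49, adjusted p = 0.0170). That block spanned all 5 groups, sham blood included. Brain and liver differed by −0.27 ± 0.51 (adjusted p = 0.899), and sham and tumor-mouse blood by −0.37 ± 0.52 (adjusted p = 0.887).

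Ctss (chr3:95526786-95556403, plus strand) encodes cathepsin S, which degrades the invariant chain of MHC class II in antigen-presenting cells. Its level was 175, 316, 389 and 443 CPM in sham blood and 305, 151, 502 and 377 CPM in circulating cells of tumor mice. Brain held 329, 880.0, 378 and 320.5 CPM in replicates 2 to 5, with only replicate 3 outside the range of the blood libraries. Liver held 874, 697, 1264 and 1036 CPM and tumor 2587, 1857, 1696 and 1356 CPM, and every tumor library was above every liver library. Ctss was 5.61-fold higher in tumor (log2 2.49 ± 0.37, adjusted p = 3.19e-05) and 2.90-fold higher in liver (1.54 ± 0.36, adjusted p = 0.0129) than in circulating cells of tumor mice, and the liver call was lost without liver replicate 3 (adjusted p = 0.0506) or blood replicate 1 of the tumor mice (adjusted p = 0.0510). Tumor minus liver was 0.95 ± 0.36 with an adjusted p of 0.112.

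Ctsb (chr14:63122462-63145923, plus strand), which encodes cathepsin B, an endopeptidase that also removes dipeptides, followed Ctss at smaller folds. Sham blood held 581, 794, 954 and 1004 CPM and circulating cells of tumor mice 827, 571, 1059.7 and 941 CPM. Brain replicates 2 to 5 held 609.8, 1802, 594 and 716 CPM, so that 3 of the 4 lay within the blood range. Liver held 1442, 1382, 2565 and 2167 CPM and tumor 3647, 1868, 2729 and 1739 CPM. Tumor exceeded circulating cells of tumor mice by 2.94-fold (log2 1.55 ± 0.34, adjusted p = 0.00141) and liver by 2.22-fold (1.15 ± 0.33, adjusted p = 0.0457). The liver call of Ctsb stood close to the threshold and was lost in 12 of 27 alternatives, where the adjusted p ranged from 0.0110 to 0.164 over all 27.

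Ctsk, whose product is the collagen-degrading cathepsin of osteoclasts, lies 17423 bases before Ctss on chromosome 3 and was close to absent. Its counts were 0, 47, 9 and 0 in sham blood, 0, 28, 69 and 42 in circulating cells of tumor mice and 0, 1, 66 and 57 in brain. In liver it had 21, 67, 153 and 276 counts and in tumor 613, 55, 327 and 161. The libraries overlapped in every comparison and no pairwise edgeR test of Ctsk passed, while limma on the rlog values called it lower in brain than in tumor (adjusted p = 0.0428).

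Of the exopeptidases, Ctsc (chr7:88278085-88310888, plus strand), which encodes cathepsin C, the dipeptidyl peptidase that activates granule serine proteases, separated the solid tissues. Sham blood held 88.3, 131, 154 and 243 CPM, circulating cells of tumor mice 117, 82.5, 196 and 156 CPM and brain replicates 2 to 5 held 96.3, 293, 105 and 75.1 CPM. The 3 groups overlapped, and brain minus circulating cells of tumor mice was 0.05 ± 0.44 on the log2 scale (adjusted p = 1.00). Liver held 736, 688, 845 and 607 CPM, and tumor 2219, 823, 916 and 365 CPM. No liver or tumor library came down to the highest brain library. Ctsc was 5.22-fold higher in liver (2.38 ± 0.47, adjusted p = 0.00304) and 7.84-fold higher in tumor (2.97 ± 0.48, adjusted p = 7.10e-05) than in circulating cells of tumor mice. It was 5.05-fold lower in brain than in liver (−2.34 ± 0.47, adjusted p = 0.00670) and 7.59-fold lower than in tumor (−2.92 ± 0.48, adjusted p = 0.000138). Between tumor and liver the adjusted p was 0.448. Without brain replicate 3 the Ctsc differences were −2.98 from liver and −3.63 from tumor, and without tumor replicate 1 they were 2.37 for tumor minus circulating cells of tumor mice and −2.33 for brain minus tumor, all still called.

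Ctsz (chr2:174427493-174439039, minus strand) encodes cathepsin Z, a carboxypeptidase. Sham blood held 215, 248, 224 and 249.6 CPM, all above the 134, 99.2, 133 and 139.8 CPM of circulating cells of tumor mice. Brain held 175, 285, 168 and 149.8 CPM, liver 267, 245, 355 and 323 CPM and tumor 755, 413, 508 and 337 CPM. Ctsz was thus 1.85-fold lower in blood of tumor mice than of sham mice (log2 −0.89 ± 0.23, adjusted p = 0.0307), but this call was lost with sequencing lane as a term (−1.02, adjusted p = 0.0702) and on leaving out any of 7 of the 8 blood libraries. It was 2.35-fold higher in liver (1.23 ± 0.23, adjusted p = 0.00197) and 3.98-fold higher in tumor (1.99 ± 0.23, adjusted p = 1.60e-06) than in circulating cells of tumor mice. Ctsz was also the only member called between tumor and liver (0.76 ± 0.23, adjusted p = 0.0385; 1 of 10 higher in tumor against 2.38% of all genes, and 0 lower against 6.40%), and this call was lost without tumor replicate 1 or 3 or liver replicate 1 or 2, with lane as a term (0.82, adjusted p = 0.0797) and when the fit held the tumor and liver libraries alone (0.78, adjusted p = 0.0721).

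Ctsh (chr9:90054152-90076089, plus strand), an aminopeptidase gene, ranged over 148 to 214 CPM in sham blood, 100.3 to 129 CPM in circulating cells of tumor mice, 131 to 207 CPM in brain, 199 to 292 CPM in liver and 234 to 589 CPM in tumor. The 4 sham libraries and the 4 brain libraries all lay above the blood libraries of tumor mice, without passing the test (adjusted p = 0.199 and 0.242). Liver exceeded circulating cells of tumor mice by 2.05-fold (1.04 ± 0.23, adjusted p = 0.00928, lost without liver replicate 3 at 0.0514) and tumor by 3.01-fold (1.59 ± 0.24, adjusted p = 2.84e-05).

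Ctsd (chr7:142375911-142388038, minus strand) and Ctsa (chr2:164832873-164841032, plus strand), which encode cathepsin D and the protective protein of the β-galactosidase and neuraminidase complex, passed no test in any of the 7 comparisons. Ctsd lay at 1328 ± 356 CPM in sham blood, 935 ± 141 in circulating cells of tumor mice, 968 ± 233 in brain, 1027 ± 199 in liver and 906 ± 246 in tumor. Ctsa lay at 655 ± 56.0, 746 ± 127, 581 ± 138, 778 ± 77.2 and 689.5 ± 99.9 CPM in the same order. The libraries of Ctsd and of Ctsa overlapped in every comparison, with log2 differences between −0.51 and 0.19. For tumor minus circulating cells of tumor mice both had small negative values (Ctsa −0.11 ± 0.17, Ctsd −0.05 ± 0.22) that turned positive with DESeq2 size factors (0.03 and 0.09). A second annotated gene, Gm49369, shares 34.4% of the Ctsd exon bases on the same strand and is listed at 0, and the sources used here do not say how reads in shared exons were assigned.

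**Figure D2:**
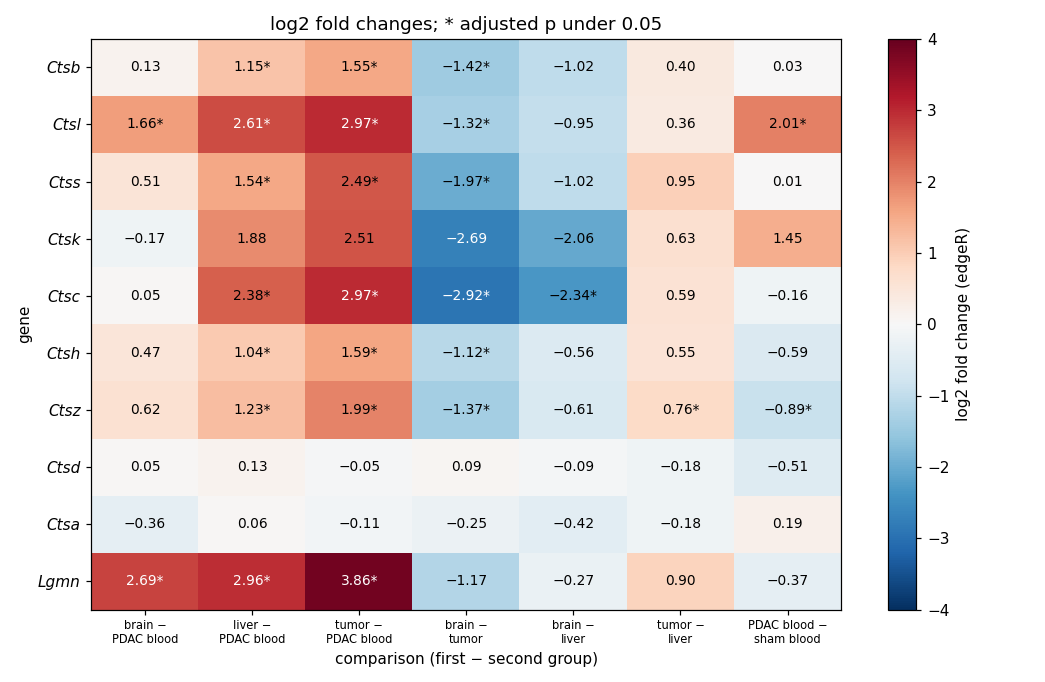
Log2 fold changes from edgeR for the 10 genes (rows) in the 7 comparisons (columns, first group minus second), with color from −4 to 4 and an asterisk where the adjusted p was under 0.05. The columns of tumor and liver against PDAC blood hold 7 asterisks each, the brain column holds 2 (Ctsl 1.66 and Lgmn 2.69), and the rows of Ctsa, Ctsd and Ctsk hold 0.

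Brain-infiltrating neutrophils thus differed from circulating cells of tumor mice in 2 members, Ctsl and Lgmn, both higher (2 of 10, where 3.56% of all genes were higher), and in 0 that were lower (1.41% of all genes). The median log2 fold change of the members was 0.30. Beside these rises 8 of the 12 macrophage and 7 of the 9 microglia markers were also higher in brain, and their part in the levels of Ctsl and Lgmn was not tested. Against tumor-infiltrating neutrophils 6 members were lower in brain (6.87% of all genes) and 0 higher (8.54%): Ctsc and Ctsl as given above, Ctss by 3.93-fold (−1.97 ± 0.37, adjusted p = 0.000548), Ctsb by 2.68-fold (−1.42 ± 0.33, adjusted p = 0.00455, and −2.03 without brain replicate 3), Ctsz by 2.59-fold (−1.37 ± 0.23, adjusted p = 0.000184) and Ctsh by 2.17-fold (−1.12 ± 0.23, adjusted p = 0.00168). Within lanes 2 and 3, the 2 that hold both, these 6 differences were all negative (Ctsh −0.83 and −1.90, Ctsc −1.91 and −4.63). By a rule on correlated deviations from group means, same-numbered libraries of brain and tumor were taken as paired (r 0.11 to 0.26). Brain replicate 4 and tumor replicate 3, with other numbers, reached 0.19, so the pairing is uncertain. The fit with the block called 7, the 6 and Lgmn.

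Against liver-infiltrating neutrophils, brain was lower in 1 member, Ctsc (1.57% of all genes were lower), and higher in 0 (1.05%). The median of the 10 genes was −0.78. Brain replicate 3 carried much of the spread in this comparison: without it 4 members were lower in brain, Ctsc with Ctsb (−1.58, adjusted p = 0.00515), Ctss (−1.51, adjusted p = 0.0183) and Ctsz (−0.87, adjusted p = 0.0397). The share of all genes lower in that fit is not reported here. Over all settings the count of such genes ran from 285 to 1105, beside 451 in the main fit. Brain replicate 3 had the highest macrophage marker sum of the brain libraries (7085 CPM, the others 1721 to 2614), the highest microglia sum (1358 CPM, the others 401 to 660.3) and the lowest neutrophil sum (66259 CPM, the others 96067 to 122495). The part of those cells in its cathepsin levels was not tested.

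Between the 2 kinds of blood, 1 member was higher in tumor mice, Ctsl (1.63% of all genes were higher), and 1 lower, Ctsz (1.69%), with a median of −0.07 over the 10 genes. Beside the rise of Ctsl in the blood of tumor mice, 4 of the 12 macrophage markers were also higher there (C1qa, C1qb, C1qc and Mertk, markers chosen with earlier results known) and Adgre1 was lower. C1qb, a complement subunit of macrophages, was at 4.73 CPM in sham blood and 44.9 CPM in blood of tumor mice. The macrophage sum was 953 to 1264 CPM in that blood and 1356 to 1696 CPM in sham blood, but most of it came from Csf1r (614 and 917 CPM) and Apoe (306 and 477 CPM), which did not pass the test. Beside the fall of Ctsz, the B cell markers Cd79a, Cd79b and Ebf1 were lower in blood of tumor mice, where the B cell list summed to 34.5 CPM (25.3 to 44.6) against 539.9 CPM in sham blood (363 to 721). Of 7 dendritic cell markers, Cd209a and Itgax were lower, and the 7 summed to 29.2 ± 7.02 CPM against 155 ± 15.3 CPM, without overlap. Of 7 monocyte markers, Ace and Klf4 were lower, with sums of 227 to 379.8 CPM against 198 to 900.1 CPM. No marker of these 3 lists was higher, each had counts in both kinds of blood, and the part of these cells in the levels of Ctsl and Ctsz was not tested.

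The macrophage marker sum and the members could also be set against each other library by library, as a description over 20 libraries that share groups and scaling. The group means of Lgmn, Ctss and the marker sum were each lowest in blood and highest in tumor. The sham libraries broke the order for Ctsl: their marker sum, mostly Csf1r and Apoe, was above that of all circulating libraries of tumor mice and their Ctsl level below.

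**Figure D3:**
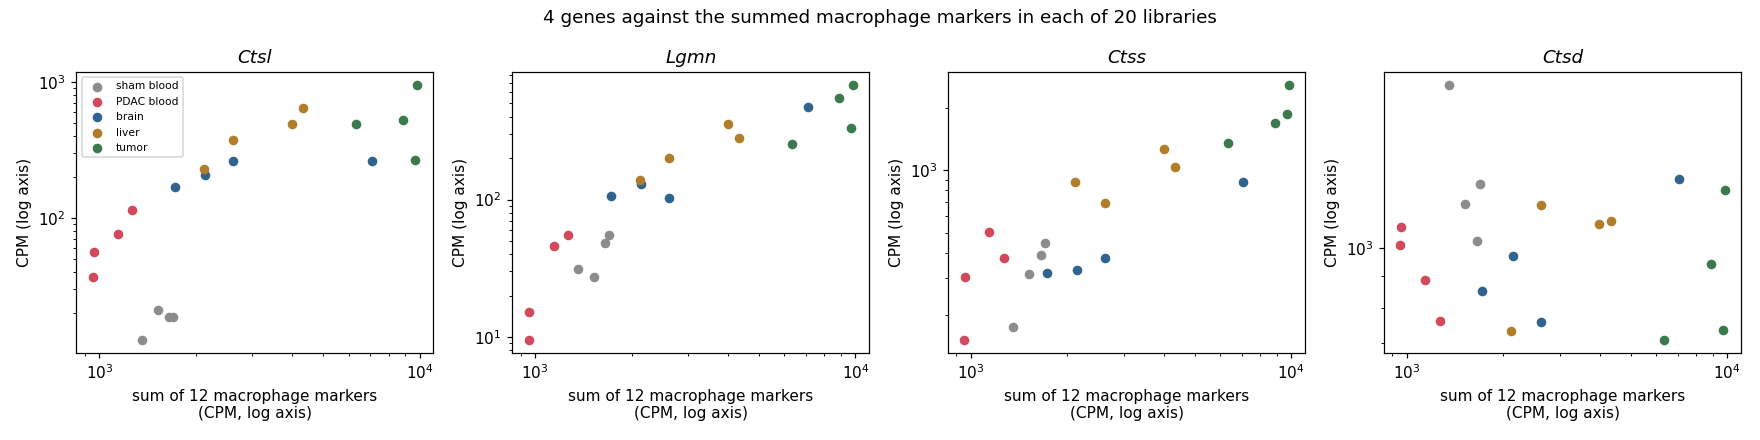
CPM of Ctsl, Lgmn, Ctss and Ctsd (vertical, log axis) against the summed CPM of 12 macrophage markers (horizontal, log axis) in each of 20 libraries, colored by group. Brain replicate 3, at a marker sum of 7085, sits with the tumor libraries on the horizontal axis and at 468 CPM of Lgmn, while Ctsd shows no rise along the axis.

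Those of 7201 genes (mean of 10 CPM or more) most like each member in log2 CPM over the 20 libraries were found by Pearson's r, given without a test since the libraries fall into groups. Ctsl was most like C1qb (r = 0.967), Mertk (0.958) and C1qa (0.954), which are macrophage genes. The genes most like Lgmn included Abcc3 (0.949) and Apoe (0.948), of which Apoe is in the macrophage list. Ctss was most like Ms4a6d (0.959), Cxcl16 (0.952) and Ctsb (0.950), and Ctsc most like Tmem106a (0.968), Prdx1 (0.949) and the chemokine gene Ccl9 (0.948). Ctsh and Ctsz were among the nearest of each other (0.953). For Ctsd the nearest gene reached 0.731 (Ubap2l) and for Ctsa 0.749 (Cebpa). Within the set, r ran from −0.37 (Ctsd and Ctsl) to 0.95 (Ctsb and Ctss, and Ctsh and Ctsz).

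Levels of different genes can be compared only per length. Length here was the union of all annotated exons, from 1358 bases for Ctss to 6489 for Ctsl, and not that of an expressed transcript. The order of the genes thus depends on the annotation. Per kilobase of annotated exon, Ctsd was the leading member in sham blood (565 ± 151 CPM per kb, 42.2% of the sum of the 10 genes) and in circulating cells of tumor mice (398 ± 59.8, 37.0%). In brain Ctsd still led, with 31.6% against 25.0% for Ctss. In liver Ctss led with 713 ± 178 CPM per kb (32.5%) and in tumor with 1380.0 ± 382 (43.4%), where Ctsd made up 12.1% of the sum although its own level per kb was 385 ± 105. The share of Ctss was 9.37 to 22.9% in sham blood and 39.8 to 48.8% in tumor, without overlap. Lgmn made up 1.30 and 1.17% in the blood of sham and tumor mice and 5.66, 4.66 and 5.93% in brain, liver and tumor. Shares sum to a fixed total, so a rise in one lowers the others.

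**Figure D4:**
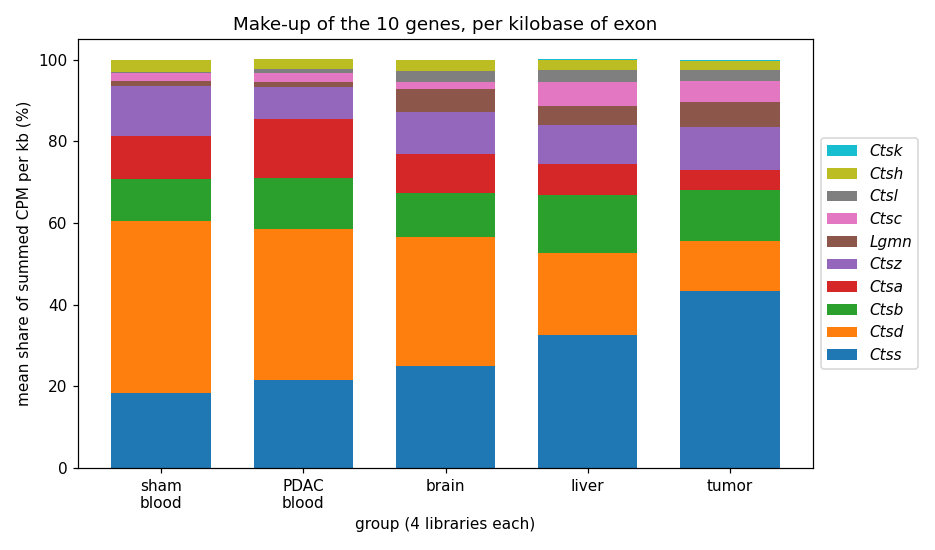
Mean share (%) of each gene in the summed CPM per kilobase of exon of the 10 genes, as stacked bars for the 5 groups of 4 libraries. The Ctss bar widens from 18.3% in sham blood to 43.4% in tumor and the Ctsd bar narrows from 42.2% to 12.1%, with brain (25.0% and 31.6%) in between.

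Among the inhibitors, the stefin A-type genes were low in tumor and Cstb was high there, while Cst3 had its highest group mean in brain. The stefin A-type genes Stfa1, Stfa2, Stfa2l1, Stfa3 and BC100530 are closely related copies, so the split of reads among them is uncertain, and their sum is given first. The 5 summed to 77.8 CPM in sham blood (61.6 to 96.8), 503 in circulating cells of tumor mice (399 to 662), 617 in brain (499 to 739.8), 353 in liver (184 to 522) and 50.2 in tumor (14.7 to 85.2), as means with their ranges. All 5 were higher in blood of tumor mice than of sham mice, from 4.73-fold for Stfa2l1 (log2 2.24 ± 0.39, adjusted p = 0.00164) to 95.2-fold for Stfa2 (6.57 ± 0.57, adjusted p = 1.02e-06, from 0.586 to 56.1 CPM). All 5 were lower in tumor than in circulating cells of tumor mice, by 8.45-fold for Stfa2l1 (adjusted p = 6.40e-06) up to 16.1-fold for Stfa2 (adjusted p = 3.04e-06). In brain all 5 were higher than in tumor, Stfa1 by 19.2-fold (4.27 ± 0.48, adjusted p = 1.84e-06) and Stfa3 by 45.3-fold (5.50 ± 0.84, adjusted p = 6.85e-05), and none differed from circulating cells of tumor mice at the threshold.

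Cstb, which encodes the broadly expressed stefin B, had its highest levels in liver and tumor. It ranged over 31.7 to 38.9 CPM in sham blood, 28.5 to 52.1 in circulating cells of tumor mice, 39.8 to 60.7 in brain, 66.5 to 138 in liver and 124 to 227 in tumor. It was 4.21-fold higher in tumor (2.07 ± 0.24, adjusted p = 1.43e-06) and 2.37-fold higher in liver (1.24 ± 0.24, adjusted p = 0.00236) than in circulating cells of tumor mice, and lower in brain than in both (adjusted p = 1.31e-05 and 0.0257). Cst3, the gene of the secreted cystatin C, was 1.62-fold higher in brain than in circulating cells of tumor mice (678 ± 173 against 418 ± 39.4 CPM; 0.70 ± 0.18, adjusted p = 0.0266) and 1.51-fold higher than in tumor (adjusted p = 0.0266). Cst7, which encodes cystatin F, was at 2.01 ± 1.65 CPM in brain and 0.0429 ± 0.0617 CPM in circulating cells of tumor mice (adjusted p = 0.0307). Of the 9 inhibitors tested, 2 were higher and 0 lower in brain than in that blood. In tumor 2 were higher and 5 lower, and in liver 1 was higher and 0 lower. Among all genes 3.56% were higher and 1.41% lower in brain, 13.3 and 10.3% in tumor, and 3.98 and 1.20% in liver. The median log2 fold change of the 9 was −3.08 in tumor and −0.27 in liver.

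**Figure D5:**
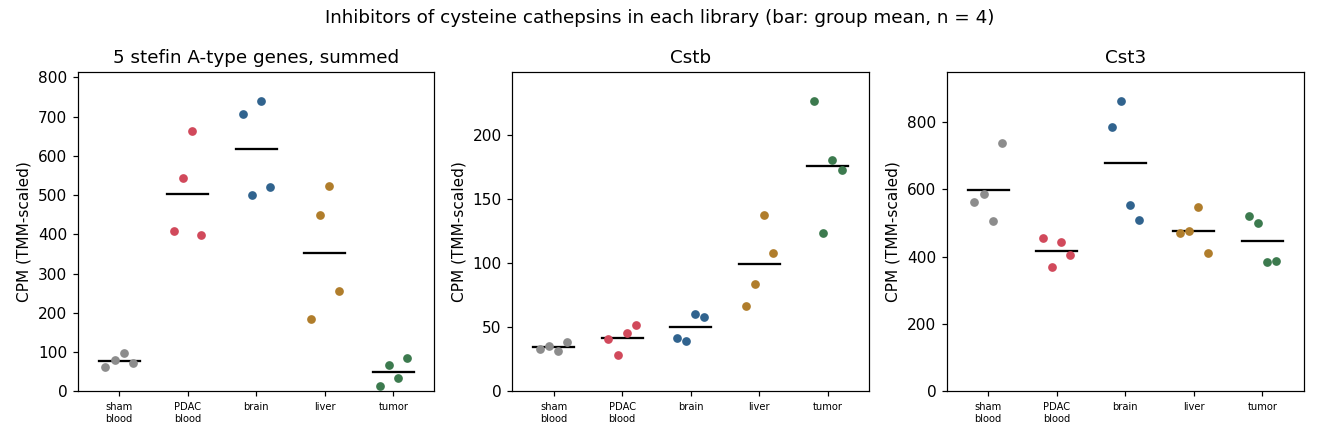
CPM after TMM scaling (linear axes from 0) of the 5 stefin A-type genes summed, of Cstb and of Cst3 in every library, with 4 points and a mean bar for each of the 5 groups. The stefin sum is 399 to 662 in PDAC blood and 14.7 to 85.2 in tumor, while Cstb has its highest mean, 176, in tumor.

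The serine proteases that cathepsin C activates were low in all groups. Prtn3, the gene of proteinase 3, was at 1.13 ± 0.793 CPM in sham blood, 7.65 ± 4.00 in circulating cells of tumor mice, 7.17 ± 4.17 in brain, 14.1 ± 3.18 in liver and 25.4 ± 7.79 in tumor, and was higher in tumor than in circulating cells of tumor mice (3.32-fold, adjusted p = 0.0193) and higher in that blood than in sham blood (6.72-fold, adjusted p = 0.00547). Prss57 went the other way in tumor (4.07-fold lower, adjusted p = 0.00508). Elane, the neutrophil elastase gene, was at 10.1 ± 8.15 CPM in brain (5.42 to 22.3) and at most 1.26 CPM in every blood, liver and tumor library, and its differences from brain missed the threshold in edgeR (adjusted p = 0.0812 against circulating cells of tumor mice). The paper, which used DESeq2, lists Elane among the upregulated transcripts that it calls brain-specific. Gzma was at 3.28 CPM or less in each group's mean. Of the 6 genes in the list, 1 was higher and 1 lower in tumor than in circulating cells of tumor mice. None passed in brain or in liver. The shares of all genes higher and lower were 13.3 and 10.3% in tumor, 3.56 and 1.41% in brain, and 3.98 and 1.20% in liver.

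Other cathepsins were low: Ctse, an aspartic protease, lay between 59.0 and 115 CPM and Ctso between 15.7 and 28.5 CPM in the group means. Ctsf was at 0.655 ± 0.617 CPM in circulating cells of tumor mice, 17.7 ± 19.8 in brain (1.08 to 46.4) and 13.9 ± 5.68 in tumor, and passed in brain (adjusted p = 0.0344) and in tumor (adjusted p = 0.0137). Of 7 others tested, 1 was higher in brain and 2 higher in tumor (Ctsf and Ctso) than in circulating cells of tumor mice. In liver 1 was lower (Ctse). Among all genes 3.56% were higher in brain, 13.3% higher in tumor and 1.20% lower in liver.

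Among genes that bring these enzymes to the lysosome, the few calls in tumor went both ways. M6pr, the cation-dependent mannose 6-phosphate receptor, was 3.20-fold higher in tumor (1.68 ± 0.21, adjusted p = 3.10e-06) and 2.48-fold higher in liver (1.31 ± 0.21, adjusted p = 0.000335) than in circulating cells of tumor mice, at 324 ± 37.2, 251 ± 42.3 and 101 ± 25.8 CPM, and lower in brain (90.6 ± 22.7 CPM) than in both. Sorl1 and Sort1, sorting receptors of another family, were lower in tumor than in that blood (207 ± 93.4 against 1925 ± 782 CPM and 22.4 ± 7.44 against 179 ± 84.4 CPM, adjusted p = 8.23e-07 and 2.21e-06). Scarb2, the carrier of β-glucocerebrosidase, was 1.57-fold lower in brain than in circulating cells of tumor mice (adjusted p = 0.0271) and 1.61-fold higher in that blood than in sham blood (adjusted p = 0.0231). Against circulating cells of tumor mice, 1 of 8 sorting genes was higher and 2 lower in tumor. In liver 1 was higher and 0 lower, and in brain 0 higher and 1 lower. The shares of all genes were 13.3 and 10.3% in tumor, 3.98 and 1.20% in liver, and 3.56 and 1.41% in brain. The 1 of 8 higher in tumor thus lay near the share of all genes.

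Other lysosomal hydrolases and cofactors showed both directions. Of 34, 16 were higher and 8 lower in tumor than in circulating cells of tumor mice (13.3 and 10.3% of all genes). In liver 10 were higher and 0 lower (3.98 and 1.20%), and in brain 5 higher and 2 lower (3.56 and 1.41%). The median log2 fold changes were 0.50 in tumor, 0.54 in liver and 0.12 in brain. Psap, the precursor of the saposins, was 1.78-fold higher in tumor (adjusted p = 0.0117) and 1.97-fold higher in liver (adjusted p = 0.0146). Gm2a, Man2b1 and Ppt1, which encode the GM2 activator, α-mannosidase and palmitoyl-protein thioesterase, were lower in tumor by 2.18-fold, 2.45-fold and 2.32-fold (adjusted p = 0.000233, 4.22e-06 and 4.60e-05), and Gm2a and Ppt1 also in brain (adjusted p = 0.00581 and 0.0252).

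Of 22 genes of the lysosome membrane and its proton pump, 8 were higher and 7 lower in tumor (13.3 and 10.3% of all genes). In liver 3 were higher and 1 lower (3.98 and 1.20%), and in brain 2 higher and 1 lower (3.56 and 1.41%). Each comparison was against circulating cells of tumor mice. Lamp1 was higher in tumor (2.57-fold, adjusted p = 8.28e-06) and in liver (1.70-fold, adjusted p = 0.0132). Laptm5, Atp6ap1 and Lamp2 were lower in tumor (1.48-fold, 1.92-fold and 1.51-fold, adjusted p = 0.00419, 4.65e-05 and 0.0210). The transcription factors of lysosomal genes divided in tumor as well: Tfeb and Tfe3 were 3.08-fold and 2.06-fold lower (adjusted p = 5.86e-06 and 0.000637) and Mitf 3.73-fold higher (adjusted p = 0.00820), while Tfec was at 1.38 ± 1.46 CPM in that blood and 25.1 ± 10.9 CPM in tumor without passing the test (adjusted p = 0.0593). None of the 4 passed in brain or liver against circulating cells of tumor mice.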

How the data were processed

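Neutrophils sorted from 5 sources gave 20 libraries, 4 a group, each with 47388245 to 54472378 counts, amplified with SMART-Seq v4 (a kit that does not mark strand) and sequenced as single reads, 4 libraries on each of 5 lanes. The authors deposited whole-number read counts per Ensembl gene without normalization, and log2 values made by the authors with the rlog transformation of DESeq2. The submitters' processing notes name mm10 and DESeq2, and the sources used here do not name the aligner or counter. No per-sample column was left out.

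Of 51918 entries, 6 repeated an Ensembl gene and were dropped; 1776 symbols were restored from GENCODE M21, which also gave positions and exon lengths (mm10). The main test was edgeR 4.0.16's quasi-likelihood test (R 4.3.3) with TMM scaling on all 20 libraries and the 28762 genes that any library had counts for, p-values adjusted by Benjamini and Hochberg within each of 7 comparisons, threshold 0.05, with no fold threshold. Standard errors are of log2 fold changes. The main test was also run on simulated counts with the same dispersion for every gene and changes in the brain libraries only. Tumor and liver against blood of tumor mice were not checked there, and the outcome is not reported here. Alternatives were DESeq2 1.42.0, limma 3.58.1 on the deposited log2 values, DESeq2 size factors, filterByExpr, lane as a term, a replicate block, only the compared groups, and leaving out each library.

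The genes named are the members, up to 4 most abundant genes of each list, every inhibitor at 1 CPM or more in some group, and the 3 genes most like each member (log2 CPM with a pseudocount of 1), of which 1 gene is not reported here. Members and lists were chosen with earlier results of these data known. As no source says that a replicate number marks 1 animal, deviations from group means were correlated: in brain against tumor all 3 same-numbered pairs (r 0.11 to 0.26) and in liver against blood of tumor mice all 4 (0.17 to 0.43) exceeded 0.1, so the numbers were taken to pair these comparisons and not the other 5. Over all groups, 17 of 33 same-numbered pairs and 28 of 127 pairs with other numbers exceeded 0.1. The rule therefore does not establish that a number marks 1 animal. The replicate block was fitted over all 20 libraries, so same-numbered libraries of sham mice and of groups not taken as paired shared its terms. The lane and the group are partly confounded: 2 compared groups never have 2 libraries each on the same lane, and tumor shares no lane with blood of tumor mice.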

Additional observations from a re-analysis of the deposited data

Results flagged for a closer look

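Brain replicate 3 stood apart from the other 3 brain libraries in 4 of the 10 genes. Its gap to the nearest of the others, divided by the group's range, was 0.899 for Ctsb (1802 CPM, the others 594 to 716), 0.865 for Ctsc (293 CPM, the others 75.1 to 105), 0.897 for Ctss (880.0 CPM, the others 320.5 to 378) and 0.930 for Lgmn (468 CPM, the others 103 to 129), above Dixon's critical value of 0.829 for 4 samples. In all, 4 of 50 groups of 4 libraries exceeded it, where chance gives 2.5. The same library had the highest macrophage and microglia marker sums and the lowest neutrophil sum of the brain libraries.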

How the results depend on the processing

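Of 70 log2 fold changes (10 genes, 7 comparisons), 26 passed the threshold; 20 of these passed in all 27 alternatives, and no passing value changed sign in any. Leaving out 1 library at a time gave 1 to 4 members lower in brain than in liver, 0 to 1 lower in blood of tumor mice than of sham mice, 4 to 7 higher in liver than in blood of tumor mice (4 without liver replicate 3) and 0 to 2 higher in tumor than in liver. DESeq2 called 2 lower in brain than in liver and 3 higher in tumor than in liver, where the replicate block called 2 and lane as a term 0; lane also gave 0 lower in blood of tumor mice than of sham mice. In comparisons that the rule did not pair, the block added Ctsz in brain against blood of tumor mice (0.78, adjusted p = 0.0298) and Ctss in tumor against liver (1.21, adjusted p = 0.0151). Over all libraries 11 of 20 correlated best with a library of their own number. In the comparisons taken as paired, the block changed no call other than that of Lgmn. The share of all genes called moved by over 1.5 times: the count over the 5 groups ran from 5856 (lane) to 10148 (DESeq2) beside 8861, and the genes higher in brain than in blood of tumor mice from 561 (lane) to 2212 (DESeq2) beside 1023, with 148 to 1156 lower beside 405. The other counts of all genes ran from 1488 to 3727 lower in brain than in tumor (1976), 131 to 1069 higher (302) and 285 to 1105 lower (451) in brain than in liver, 287 to 1104 higher (468) and 266 to 1456 lower (486) between the bloods, 2065 to 5209 higher (3833) and 1827 to 3350 lower (2973) in tumor and 746 to 2338 higher (1146) and 207 to 1201 lower (345) in liver than in blood of tumor mice, and 330 to 2305 higher in tumor than in liver (685). DESeq2 size factors moved the median of 7202 genes by −0.12 in brain against tumor, 0.13 in tumor against blood of tumor mice and 0.15 in tumor against liver. 

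Among values that did not pass, 18 changed sign in some alternative, 47 of 72 times on leaving out 1 library. With lane as a term these were brain against blood of tumor mice for Ctsc (−0.06), brain against tumor for Ctsd (−0.12), the 2 bloods for Ctsb (−0.23) and Ctss (−0.07), tumor against blood of tumor mice for Ctsa (0.12), Ctsd (0.51) and Ctsk (−0.19), and tumor against liver for Ctsd (0.12) and Ctsk (−1.67). With rlog values they were Ctsc (−0.08), Ctsd (−0.02), Ctss (−0.04), Ctsa (0.02) and Ctsd (0.06) in the same comparisons; with DESeq2 or its size factors Ctsd (−0.04), Ctss (0.00), Ctsa (0.03) and Ctsd (0.09); and with the block Ctsd in brain against liver (0.01), Ctsb (−0.01) and Ctss (−0.06) in the 2 bloods. On leaving out 1 library, brain against blood of tumor mice ran from −0.46 to 0.25 (Ctsb), −0.64 to 0.22 (Ctsc), −0.18 to 0.10 (Ctsd), −0.89 to 0.38 (Ctsk) and −0.01 to 0.74 (Ctss); Ctsd ran from −0.14 to 0.26 in brain against tumor, −0.27 to 0.01 in brain against liver and −0.22 to 0.09 in tumor against blood of tumor mice; the 2 bloods from −0.11 to 0.18 (Ctsb), −0.35 to 0.18 (Ctsc) and −0.22 to 0.25 (Ctss); Ctsa in liver against blood of tumor mice from −0.03 to 0.17; and tumor against liver from −0.03 to 0.86 (Ctsc), −0.06 to 1.25 (Ctsk) and −0.02 to 0.67 (Ctsl).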
